A study of Drosophila melanogaster with 266 samples.

Results

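Neuropeptide precursor genes encode the proteins from which secreted signalling peptides are cut, and 45 of them, chosen by name as known Drosophila neuropeptide or peptide hormone genes, are described here out of 13931 protein-coding genes measured. All 45 were present in the coding gene table. A modeled expression state was given for 44 of them, and FMRFa, which encodes the FMRFamide peptides, was the exception. Of the 45, 44 matched the reference annotation by identifier and Nplp2 matched by name.

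The study profiled RNA mostly from genetically tagged nuclei of the adult fly head, mainly of the visual system, in 266 libraries. The Muscles_App nuclei came from appendages, and 8 libraries held total RNA of dissected tissue. Nuclei were labelled by an UNC84-2XGFP fusion under GAL4 or LexA control, and were isolated by INTACT (one affinity purification of tagged nuclei) or by TAPIN (2 successive captures). Flies were adults of 4 to 7 days, kept in 12 h light and 12 h dark and collected between ZT8 and ZT12, where ZT is hours after lights on. Of the libraries, 203 passed the study's quality control, 47 were marked sub-optimal and 16 were controls.

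The libraries at the centre of this account came from 7 peptide drivers, that is, GAL4 lines that label peptide-releasing neurons. The lines NPF_d1 (4 libraries) and Crz_d1, Dsk_d1, Ilp2_d1, CCAP_d1 and Pdf_d1 (2 libraries each) were GAL4 lines named after the peptide gene, and lLNv_d1 (2 libraries) was a split-GAL4 line for the large ventral lateral clock neurons. These 16 libraries were set against 154 TAPIN libraries of 77 other neuron drivers (121 that passed and 33 sub-optimal), which held optic lobe neurons, photoreceptors, Kenyon cells, PAM neurons, mushroom body output neurons and bridge neurons. All of these flies carried the same reporter design, 10XUAS-UNC84-2XGFP. A driver stands for whichever cells it labels, many heads were pooled per library, and 12 of the 16 peptide driver libraries were sub-optimal. Further groups were photoreceptors (10 libraries), Kenyon cells (12), PAM dopamine neurons (6), bridge neurons of the central complex (12), glia (12) and muscles (4, with a 5XUAS reporter), each against optic lobe neurons (127). Dissected lamina (4 libraries of total RNA, with no nuclear capture) was set against the rest of the optic lobe (4), male T4.T5 neurons (2) against female ones (2), and captured Tm1 nuclei (2) against the input homogenate (2). Each dissected tissue came from 2 fly genotypes, labelled d1 and d2, with 2 libraries each, and the main fit pooled them.

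Neuropeptides are made as longer precursors in the cell body, are cut by prohormone convertases, are often amidated at their ends, and are packed into dense-core vesicles that release them locally or into the haemolymph. Most act on G protein-coupled receptors, while the insulin-like peptides act on a receptor tyrosine kinase. In the fly brain a single neuron commonly releases a small-molecule transmitter together with one or more peptides, and groups of a few large neurosecretory cells supply hormones to the whole body.

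All levels are transcript abundances scaled to the same total in each library (TPM) over coding genes, and fold changes are differences of log2(TPM + 1), which understate changes of genes near 0. TPM carries no read number, so the depth behind a value is unknown and no counting interval was drawn. In bulk nuclei, fewer cells of a type and less RNA per cell cannot be told apart. The labels do not say whether libraries of a driver came from separate fly cultures, so p-values measure the spread between libraries. Genes at 10 TPM or more numbered 1800 to 6736 in the peptide driver libraries and 4275 to 8327 in the passing optic lobe neuron libraries, and exogenous spike-in RNA took 0.0446% to 48.3% of TPM in the peptide driver libraries. Libraries that stood apart were CCAP_d1 (1800 and 3477 genes, 48.3% and 27.1% spike-in), lLNv_d1 (2357 and 4521 genes, 33.9% and 23.5%) and replicate 3 of NPF_d1 (3237 genes, 14.6%). In 12 bead and mock libraries, which hold no specifically captured nuclei, some precursors also reached high levels.

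On the genome (Release 6, dm6), exons of 8 precursor genes overlapped another gene. The overlap covered 582 of 626 bases for Lk, which encodes leucokinin, and 683 of 755 for ETH, which encodes ecdysis triggering hormone, both with an antisense RNA gene, so those levels are uncertain. AstC and its paralog AstCC lay 2060 bases apart on 2L, and Ilp2, Ilp3 and Ilp5 lay within 30 kb on 3L.

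Each peptide driver was first checked for the gene it was named after. NPF (3R, 16609220 to 16611325), the fly relative of vertebrate neuropeptide Y, measured 4419, 4129, 2583 and 1573 TPM in the NPF_d1 libraries, against a lowest value of 0, a median of 0 and a highest of 109.7 TPM in the 154 reference libraries. The groups did not overlap, and the difference was 10.96 ± 0.82 (SE) on the log2 scale (limma, adjusted p = 3.78e-25). Crz (3R, 14314854 to 14315716), which encodes the stress-related peptide corazonin, measured 703 and 798 TPM in Crz_d1, against 0, 0 and 18.5 TPM (lowest, median and highest) in the reference, again without overlap (log2 difference 9.15 ± 0.87, limma adjusted p = 1.62e-16).

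Dsk (3R, 4189692 to 4190260), which encodes the cholecystokinin-like drosulfakinins, measured 1003 and 1212 TPM in Dsk_d1, against 0, 0 and 93.0 TPM in the reference (log2 difference 9.43 ± 1.07, limma adjusted p = 1.37e-12). Ilp2 (3L, 9799698 to 9800440), an insulin-like peptide of the brain, measured 6828 and 7309 TPM in Ilp2_d1, against 0, 10.6 and 125 TPM (log2 difference 9.81 ± 1.60, limma adjusted p = 1.3e-06). CCAP (3R, 22700582 to 22702084), the crustacean cardioactive peptide gene, was the lowest of the own genes with 145 and 96.1 TPM in CCAP_d1, against 0, 0 and 10.3 TPM (log2 difference 6.81 ± 0.46, limma adjusted p = 8.66e-29). None of these 3 pairs of groups overlapped. Genes entered the fit at 10 TPM or more in at least 2 fitted libraries, driver libraries included. CCAP reached at most 10.3 TPM in the reference, so it entered mainly through driver libraries. The direction of its difference was largely set by that filter.

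Pdf (3R, 26455462 to 26456141), which encodes the pigment dispersing factor of the clock neurons, measured 6263 and 7707 TPM in Pdf_d1 and 6078 and 13172 TPM in lLNv_d1, against 0, 0.945 and 57.1 TPM in the reference. The log2 differences were 11.55 ± 1.19 for Pdf_d1 (limma adjusted p = 1.74e-14) and 11.91 ± 1.19 for lLNv_d1 (limma adjusted p = 1.56e-15). Both sets of driver libraries lay above every reference library. All 7 own-gene differences kept their call without any single library of the driver. The clock markers tim, per and Clk summed to 2467 to 2665 TPM in Pdf_d1 and 1482 to 2958 TPM in lLNv_d1, against a median of 46.4 TPM in optic lobe neurons, but also to 3226 to 10513 TPM in photoreceptors and 632 to 2797 TPM in glia. Nearly all of the sum was tim. Clk stood at 45.6 and 140 TPM in Pdf_d1 and at 0.44 and 130 TPM in lLNv_d1, against a median of 2.85 TPM in optic lobe neurons, and per at 10.3 and 21.8 TPM in Pdf_d1 and 38.0 and 56.3 TPM in lLNv_d1, against 13.4 TPM.

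**Figure D1:**
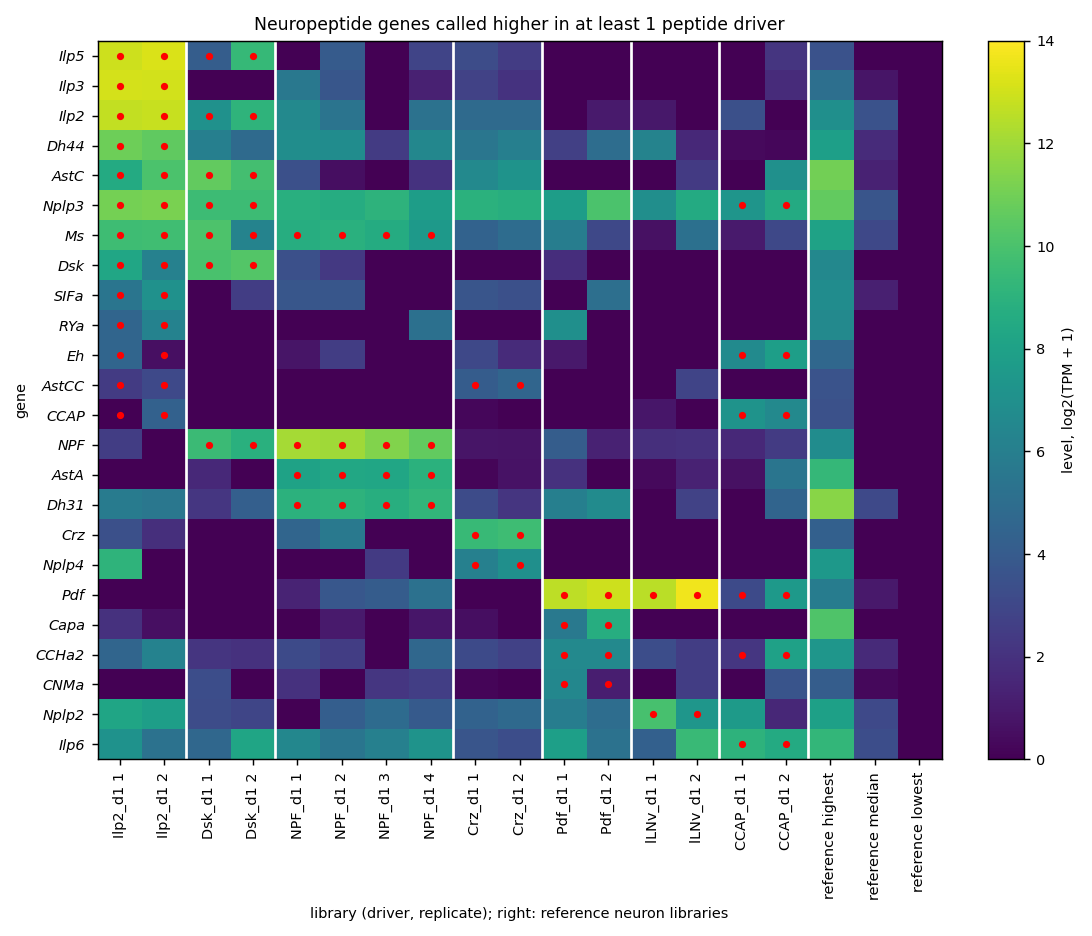
Levels of the 24 precursor genes called higher in at least 1 peptide driver (rows), as log2(TPM + 1), in each of 16 driver libraries (columns), with the highest, median and lowest of the 154 reference neuron libraries at the right. Red dots mark a gene called higher in that driver by limma, and the brightest cells are the insulin-like genes in Ilp2_d1 and Pdf in Pdf_d1 and lLNv_d1.

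The other precursors were then compared in the same fits, which tested 11444 genes, among them 44 members. Over the 7 drivers, 39 gene-driver pairs were called higher and 2 lower, own genes included. Of all genes, 0.751% (NPF_d1) to 3.91% (Ilp2_d1) were called higher in a driver. Both lower calls were in CCAP_d1, where 27.6% of all genes were called lower. Member counts given below without a single library describe the settings only where no share of all genes stands beside them. The median difference of all genes was -1.65 in CCAP_d1, -1.21 in lLNv_d1, -0.60 in Dsk_d1, -0.42 in Pdf_d1 and -0.17 in NPF_d1 on the log2 scale, and 0.02 in Crz_d1 and -0.07 in Ilp2_d1. Like CCAP, Ilp5 and AstCC hardly reached 10 TPM in the reference and entered mainly through driver libraries. The direction of their calls was largely set by the filter, and the counts of members called higher include them.

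The Ilp2_d1 libraries carried the largest number of members, 13 of 44 called higher and 0 lower, where 3.91% of all genes were called higher. The 3 brain insulin genes led. Ilp3 (3L, 9801298 to 9802120) measured 8835 and 8467 TPM in Ilp2_d1, against 0, 0.765 and 33.9 TPM in the reference (log2 difference 12.01 ± 1.04, limma adjusted p = 7.22e-20). Ilp5 (3L, 9823349 to 9823897) measured 7781 and 9372 TPM, against 0, 0 and 10.5 TPM (12.79 ± 0.80, limma adjusted p = 4.33e-32). Neither overlapped the reference, and the 3 insulin genes stood at like levels within each library.

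Other peptides of the same libraries ranked next. Dh44 (3R, 9638182 to 9650706), a diuretic hormone related to corticotropin-releasing factor, measured 1950 and 1512 TPM in Ilp2_d1, against 0, 2.35 and 238 TPM in the reference (log2 difference 8.53 ± 1.39, limma adjusted p = 1.36e-06). Ms (3R, 24341551 to 24343825), which encodes myosuppressin, an inhibitor of visceral muscle, measured 815 and 850 TPM, against 0, 7.29 and 268 TPM (6.55 ± 1.18, limma adjusted p = 1.58e-05). Both were above every reference library.

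Dsk measured 305 and 69.8 TPM in Ilp2_d1, against 0, 0 and 93.0 TPM in the reference (log2 difference 6.52 ± 1.07, limma adjusted p = 1.45e-06), so the second library lay inside the reference range. AstC (2L, 11076165 to 11081399), a somatostatin-like allatostatin, measured 371 and 1037 TPM, against 0, 1.56 and 2098 TPM (7.36 ± 1.65, limma adjusted p = 0.00104). Against the sub-optimal reference libraries alone the AstC difference was 6.12 with an adjusted p of 0.0859. Nplp3, a precursor first found by peptide sequencing, measured 2186 and 2303 TPM, against 0, 11.8 and 1599 TPM (7.26 ± 1.64, limma adjusted p = 0.00116), and reached 1111 TPM in a mock library.

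The remaining calls in Ilp2_d1 were of lower genes, and each call was lost without 1 of the 2 libraries. SIFa, the SIFamide gene, measured 42.3 and 134 TPM (log2 difference 4.87, limma adjusted p = 0.0124), and 4.05 with an adjusted p of 0.122 without replicate 2. RYa, an RYamide gene, measured 22.8 and 73.0 TPM (4.34, limma adjusted p = 0.0359), and 3.52 with 0.212 without replicate 2, and reached 110 TPM in a bead library without a driver. AstCC measured 4.33 and 7.52 TPM (2.33, limma adjusted p = 0.0138), and 1.99 with 0.114 without replicate 2.

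Eh, the eclosion hormone gene, measured 23.1 and 0.49 TPM in Ilp2_d1 (log2 difference 2.38, limma adjusted p = 0.0295), and 0.37 with an adjusted p of 0.913 without replicate 1. CCAP measured 0 and 19.3 TPM in Ilp2_d1 (2.09, limma adjusted p = 0.000748), and without replicate 2 the difference was -0.084 with an adjusted p of 0.931. Nplp4, listed at 551 and 0 TPM in Ilp2_d1, was not called. After quantile normalization 553 genes were higher and 554 lower, in place of 447 and 175, and the member counts became 15 and 0.

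In Dsk_d1, 7 of 44 members were called higher and 0 lower, where 2.6% of all genes were called higher. NPF measured 735 and 472 TPM in Dsk_d1, against 0, 0 and 109.7 TPM in the reference (log2 difference 8.65 ± 0.91, limma adjusted p = 4.3e-14), without overlap. AstC measured 1592 and 891 TPM, inside the reference range of 0 to 2098 TPM (8.30 ± 1.65, limma adjusted p = 0.000151), and its difference was 7.06 with an adjusted p of 0.0654 against the sub-optimal reference libraries alone. Ilp5 measured 16.3 and 672 TPM, against at most 10.5 TPM (6.49 ± 0.80, limma adjusted p = 9.03e-11), so the 2 libraries differed widely.

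Ilp2 measured 133 and 545 TPM in Dsk_d1, just above the reference maximum of 125 TPM (log2 difference 5.11, limma adjusted p = 0.0288), and 4.10 with an adjusted p of 0.205 without replicate 2. Ilp3 was listed at 0 in both Dsk_d1 libraries. Ms measured 1082 and 76.2 TPM (5.03, limma adjusted p = 0.00201), and 3.12 with 0.137 without replicate 1. Nplp3 measured 762 and 785 TPM (5.72, limma adjusted p = 0.0151), and 5.70 with 0.0618 without replicate 2, at levels below the 1111 TPM of a mock library. Against the sub-optimal reference libraries alone, Ms gave 4.70 with 0.057 and Nplp3 4.69 with 0.166. The first library was thus high in Ms and the second in Ilp2 and Ilp5. After quantile normalization 518 genes were higher and 590 lower, in place of 297 and 600, and 7 members were still higher.

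In NPF_d1, 4 of 44 members were called higher and 0 lower, where 0.751% of all genes were called higher. AstA (3R, 24760530 to 24765071), an allatostatin linked to feeding and sleep, measured 270, 342, 307 and 482 TPM in NPF_d1, against 0, 0 and 641 TPM in the reference (log2 difference 7.62 ± 1.02, limma adjusted p = 3.06e-09). Ms measured 420, 470, 384 and 180 TPM, against 0, 7.29 and 268 TPM (5.27 ± 1.05, limma adjusted p = 0.000486), while 1 bead library without a driver held 716 TPM. Each of the 4 libraries was high in both genes, but the ranges overlapped.

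Dh31 (2L, 8491868 to 8506845), a diuretic hormone related to calcitonin, measured 513, 532, 435 and 594 TPM in NPF_d1, against 0, 7.51 and 2927 TPM in the reference (log2 difference 5.42 ± 1.48, limma adjusted p = 0.0436). That call was lost without replicate 1 (adjusted p = 0.0632), replicate 2 (0.0633) or replicate 4 (0.0516), at differences of 5.42, 5.40 and 5.35, and 1 mock library held 697 TPM. Without replicate 3, 197 genes were higher in place of 86 and 6 members in place of 4. After quantile normalization 119 genes were higher and 96 lower, in place of 86 and 14, with 4 members higher.

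In Crz_d1, 3 of 44 members were called higher and 0 lower, where 0.918% of all genes were called higher. Beside Crz these were AstCC, with 15.6 and 22.6 TPM against at most 11.0 TPM in the reference (log2 difference 3.88 ± 0.65, limma adjusted p = 9.63e-06), and Nplp4, with 67.2 and 124 TPM against at most 173 TPM (5.75, limma adjusted p = 0.00657). The Nplp4 difference was 5.32 with an adjusted p of 0.155 without replicate 2. AstCC lay above every reference library and Nplp4 did not.

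The glial markers repo, alrm and Eaat1 summed to 2446 to 2620 TPM in Crz_d1, nearly all of it Eaat1, a glutamate transporter gene, while repo, the defining glial transcription factor gene, stood at 1.48 and 3.36 TPM. The part of those transcripts in the Crz_d1 results was not tested.

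In Pdf_d1, 4 of 44 members were called higher and 0 lower, where 1.9% of all genes were called higher. Capa, which encodes pyrokinin and diuretic peptides, measured 49.6 and 426 TPM in Pdf_d1, against 0, 0 and 1114 TPM in the reference (log2 difference 6.09, limma adjusted p = 0.0258), and 4.56 with an adjusted p of 0.211 without replicate 2. The photoreceptor markers ninaE, chp and Arr2 summed to 4401 to 6618 TPM in Pdf_d1, against a median of 565 TPM in optic lobe neurons, 2 bead libraries held 637 and 255 TPM of Capa, and the part of either in this call was not tested. CCHa2, a nutrient-responsive peptide of gut and fat body, measured 95.5 and 93.7 TPM, against 0, 2.15 and 165 TPM (4.74, limma adjusted p = 0.0223). CNMa, the CNMamide gene, measured 89.4 and 1.26 TPM (3.14, limma adjusted p = 0.0457), and 0.47 with 0.854 without replicate 1. For CCHa2 the adjusted p was 0.067 without replicate 1, at a difference of 4.72, and 0.0607 without replicate 2, at 4.75, so of the 4 calls only that of Pdf held without either library. The count of members called higher was 2 without replicate 1.

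In lLNv_d1, 2 of 44 members were called higher and 0 lower, where 2.19% of all genes were called higher. Beside Pdf this was Nplp2, with 954 and 161 TPM against 0, 7.63 and 248 TPM in the reference (log2 difference 5.36, limma adjusted p = 0.0143), and 4.07 with an adjusted p of 0.185 without replicate 1. Nplp2 reached 2420 TPM in a mock library. Capa was listed at 0 in both lLNv_d1 libraries. After quantile normalization 597 genes were higher and 719 lower, in place of 251 and 1953, and the member count became 8. It was 4 without replicate 1 and 3 without replicate 2.

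In CCAP_d1, 6 of 44 members were called higher, where 2.23% of all genes were called higher, and 2 lower, where 27.6% were called lower. Eh measured 104 and 233 TPM in CCAP_d1, against 0, 0 and 24.6 TPM in the reference (log2 difference 7.09 ± 0.73, limma adjusted p = 5.33e-15), without overlap. Ilp6, an insulin-like peptide of fat body and glia, measured 526 and 379 TPM, against 0, 8.99 and 607 TPM (5.33, limma adjusted p = 0.00192), and reached 734 TPM in a bead library without a driver. The Ilp6 difference was 4.46 with an adjusted p of 0.068 against the sub-optimal reference libraries alone. Pdf measured 7.76 and 193 TPM (4.15, limma adjusted p = 0.00418), and 1.91 with 0.288 without replicate 2.

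CCHa2 measured 3.65 and 257 TPM in CCAP_d1 (log2 difference 3.27, limma adjusted p = 0.044), and 0.37 with an adjusted p of 0.834 without replicate 2. Nplp3 measured 157 and 371 TPM (4.05, limma adjusted p = 0.0484), and the call was lost without replicate 1 (4.66, adjusted p = 0.0812) and without replicate 2 (3.43, 0.167). The 2 lower calls were Proc, which encodes the muscle-active peptide proctolin, at 0 and 0.47 TPM (-5.50, limma adjusted p = 0.0197), and amn, the memory gene amnesiac, at 0.54 and 102 TPM (-3.03, limma adjusted p = 0.000842). Without replicate 1, the library with the fewest genes, Proc gave -5.22 with 0.0972 and amn -0.00 with 0.999, so no lower call was left, and 7 members were then higher. Without replicate 2 the count of members called higher was 3. After quantile normalization 706 genes were higher and 919 lower, in place of 255 and 3157, and the member counts became 9 and 0.

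Sums of fat body, muscle and photoreceptor markers in the peptide drivers lay above the medians of optic lobe neurons. The fat body markers Yp1, Lsp2 and fit summed to 17855 to 24883 TPM in CCAP_d1, 28663 to 32527 in Pdf_d1 and 30053 to 39402 in lLNv_d1, against a median of 700 TPM in optic lobe neurons. They summed to 813 to 22461 TPM in NPF_d1, 6641 to 7458 in Ilp2_d1, 3185 to 3194 in Dsk_d1 and 978 to 1138 in Crz_d1. Nearly all of each sum was Yp1, and the other markers differed among drivers. Against an optic lobe median of 5.83 TPM, Lsp2 stood at 30.3 and 102 TPM in Pdf_d1 but at 0.63 and 1.28 TPM in Ilp2_d1. In Dsk_d1 both Lsp2 and fit were listed at 0, as was fit in Ilp2_d1. The muscle markers Mhc, up and Act88F summed to 561 to 1107 TPM in CCAP_d1, 672 to 859 in Dsk_d1 and 462 to 733 in Ilp2_d1, the 3 drivers with an Nplp3 call, and to 50.9 to 528 TPM in the other 4, against a median of 16.9 TPM in optic lobe neurons. Act88F was listed at 0 in CCAP_d1, Dsk_d1 and lLNv_d1. The photoreceptor markers summed to 5239 to 9054 TPM in CCAP_d1, 3748 to 9126 in lLNv_d1, 3650 to 4287 in Ilp2_d1, 3480 to 3487 in Dsk_d1, 1195 to 3057 in NPF_d1 and 1046 to 1089 in Crz_d1. The part of these transcripts in the Nplp3, CCHa2, Ilp6, Nplp2 and other calls was not tested. A bead library without a driver held 547 TPM of CCHa2, above the 257 TPM of CCAP_d1.

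The genes that process and store peptides were read from a list of 12. The basic helix-loop-helix gene dimm, which sets the secretory capacity of peptidergic cells, was called higher in all 7 drivers, with log2 differences of 2.64 in CCAP_d1 to 9.09 in Ilp2_d1 (limma adjusted p of 0.00681 and 1.19e-19). In Ilp2_d1 dimm measured 986 and 561 TPM, against 0 and at most 21.5 TPM (median and highest) in the reference. In CCAP_d1 it measured 0.33 and 53.6 TPM, so only the second library lay above the reference. The convertase gene amon was called in none of the drivers as higher and in CCAP_d1 and lLNv_d1 as lower. Over the list, CCAP_d1 had 2 genes higher and 6 lower and lLNv_d1 3 higher and 2 lower, while NPF_d1 and Crz_d1 had 1 higher and 0 lower, Pdf_d1 2 and 0, Dsk_d1 3 and 1 and Ilp2_d1 1 and 1.

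The deposited states gave a wider view across 67 cell types, of which 46 were optic lobe neurons. A state is the probability, from a mixture model over all libraries, that a gene is expressed, and a gene was counted as on at 0.8 or more and off at 0.2 or less. The 44 modeled members were on in a median of 6 cell types, against 36 for all 12377 modeled genes. Of the members, 10 were on in no cell type, 11 in 1 to 5, 19 in 6 to 33 and 4 in more than 33. Among genes fitted with 2 components, the medians were 6 for 37 members and 31 for 10269 genes.

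A state and a level are different quantities. The 7 members fitted with 1 component were given a single state throughout, so Nplp2 was on in 67 cell types at a median of 16.3 TPM over cell types, and spab was off in all at up to 225 TPM in PB_5. At a mean of 50 TPM or more, members reached 245 gene-cell pairs, a median of 1 cell type each, while the states gave 430 pairs.

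**Figure D2:**
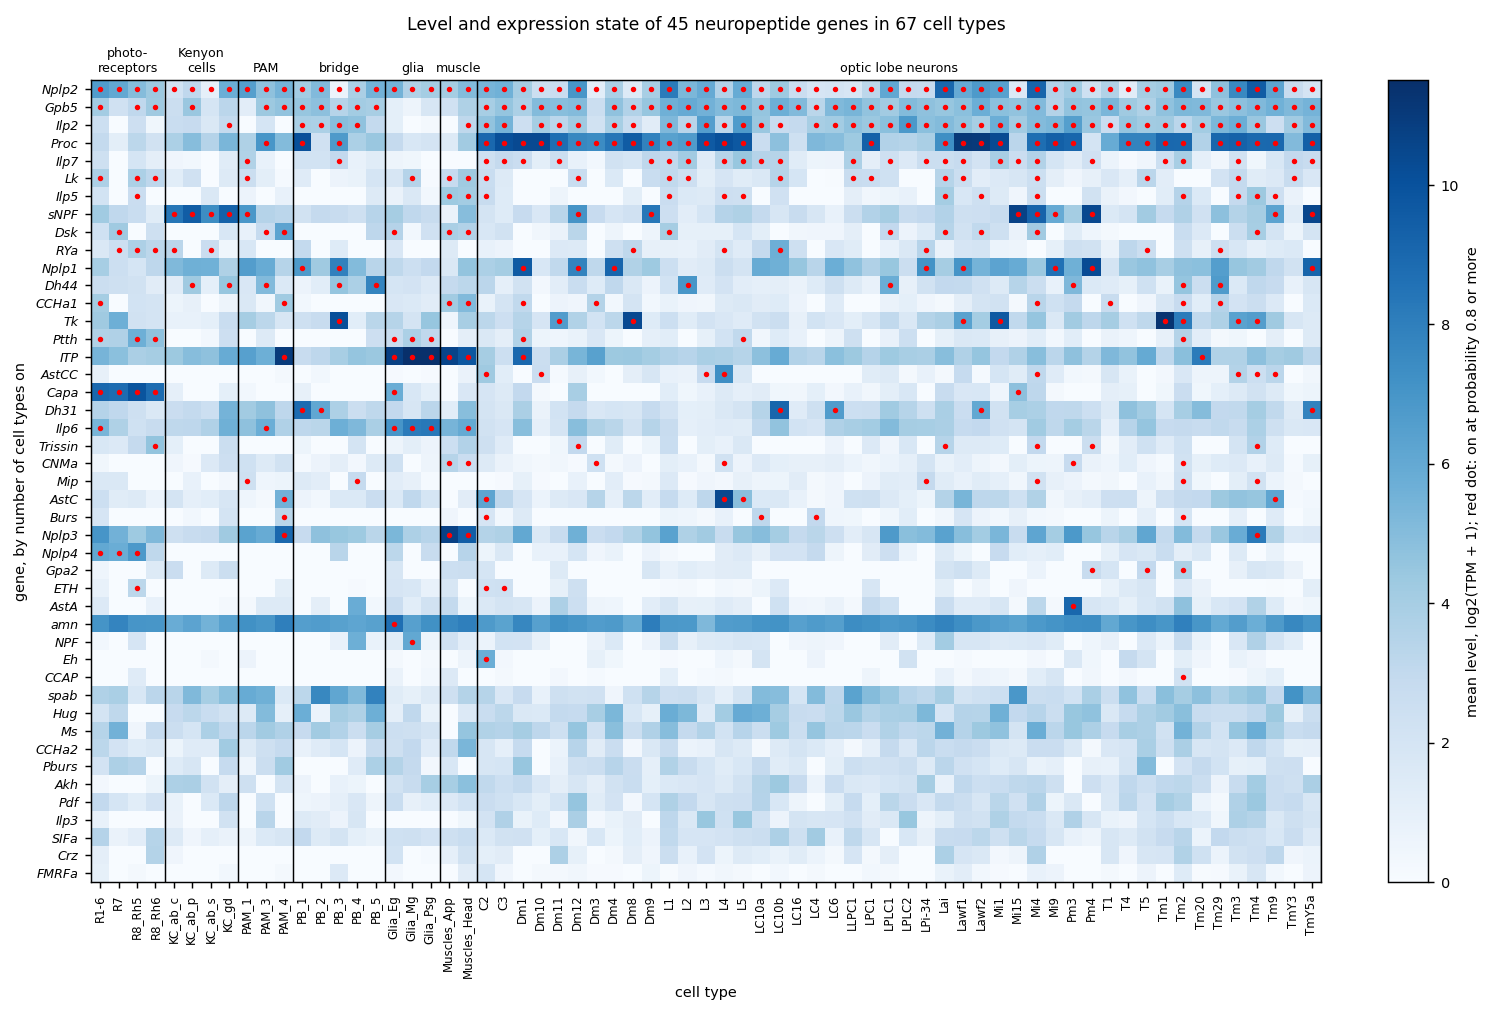
Mean level of the 45 precursor genes as log2(TPM + 1) (blue) in 67 cell types, grouped by class, with rows ordered by the number of cell types in which the gene was on and red dots where its probability was 0.8 or more. Proc, Gpb5, Ilp2 and Nplp2 carried dots in over 33 cell types, and Capa, ITP and Nplp3 were darkest in photoreceptors, glia and muscles.

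Broad members were few. Gpb5, a subunit of the glycoprotein hormone thyrostimulin, was on in 56 cell types at a median of 22.9 TPM, and its partner subunit gene Gpa2 was on in 3 with at most 12.2 TPM. Ilp2 was on in 47 cell types, but its highest mean was 111 TPM in LPLC2, against the 6828 and 7309 TPM of Ilp2_d1. The Ilp2 and Gpb5 states coincided in 45 cell types.

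Proc combined breadth with level. It was on in 35 cell types and was the highest-level member in both lamina wide-field neurons, with 2140 ± 475 TPM in Lawf1 (SD, n = 4) and 2070 ± 133 TPM in Lawf2 (SD, n = 2). The 4 Lawf1 values were 2526 and 2576 TPM by INTACT and 1703 and 1755 TPM by TAPIN. Lawf2 was profiled by INTACT alone, and its mean lay below both INTACT values of Lawf1 and above both TAPIN values. Its receptor gene Proc-R was on in 5 cell types and in none of the 35.

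Several fast-acting visual neurons carried 1 dominant peptide. Tk (3R, 11994175 to 12005473), the tachykinin gene, measured 2418 and 2620 TPM in Tm1, a transmedullary neuron, 1319 and 1268 TPM in Dm8 and 1170 and 1100 TPM in the bridge type PB_3. It was on in 9 cell types and made up 74.5% of the summed precursor level in Tm1. Dm8 lay above PB_3, whose values did not overlap, and both lay below Tm1.

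The short neuropeptide F gene sNPF (2L, 20027915 to 20056373), which modulates olfaction, feeding and memory, was on in 13 cell types. It measured 1613 ± 120 TPM in Mi15 (SD, n = 4) and 1423 and 1447 TPM in TmY5a, with 1485 and 1248 TPM in Pm4. TmY5a lay just below the lowest Mi15 library, at 1480 TPM, and between the Pm4 values. Nplp1, a precursor of amidated peptides, measured 1167 and 1321 TPM in Pm4 and 770 and 759 TPM in Dm1. Pm4 and TmY5a were on for both genes, and across the 67 cell types the 2 genes had a Pearson correlation of 0.396.

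AstC and AstCC shared their highest cell type, the lamina neuron L4. AstC measured 1362 and 1357 TPM in L4, and the next cell type, C2, held 68.7 and 79.7 TPM, so the first exceeded the second 18.3-fold. AstCC measured 139 and 186 TPM in L4 and 14.3 and 21.2 TPM in C2. Their levels had a Pearson correlation of 0.752 over 67 cell types, and both were on in 3. The cell types share libraries and depth across the genes, so such correlations only describe these data.

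In Lawf1 AstC measured 81.9 and 77.5 TPM by INTACT with one driver and 0.31 and 0.45 TPM by TAPIN with another. The AstC receptor genes AstC-R1 and AstC-R2 were on in 9 and 20 cell types, and in none of the 5 in which AstC was on.

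Other peptides were confined to 1 cell type in the states. AstA was on only in Pm3, a proximal medulla neuron, at 641 and 419 TPM, although it also measured 159 and 50.2 TPM with the second driver of PB_4 and 2.38 and 6.89 TPM with the first. Eh was on in C2 alone, at 47.0 and 56.4 TPM, and CCAP in Tm2 alone, at 5.55 and 1.54 TPM. NPF was on in the glial type Glia_Mg alone, at 27.9 and 102 TPM, but measured 109.7 and 94.8 TPM with the second driver of PB_4 and 0 with the first. PB_4 values of AstA and NPF thus differed between its drivers.

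The diuretic hormone genes were each on in a few cell types. Dh31 was on in 6 cell types and measured 502 and 579 TPM in the lobula columnar neuron LC10b, 465 and 433 TPM in PB_1 and 227 and 214 TPM in TmY5a. Dh44 was on in 10 and measured 217 and 210 TPM in PB_5, 120 and 121 TPM in L2 and 109.7 and 99.3 TPM in Tm29. For Dh31 the LC10b libraries lay above those of PB_1, and both lay above TmY5a.

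Several precursors were on in no cell type of this collection. Crz, Ms, Pdf and SIFa were on in none of the 67 cell types although each was fitted with 2 components, with highest cell type means of 12.8, 53.0, 22.6 and 17.0 TPM. Hug, the hugin gene of feeding circuits, Ilp3, Akh, the adipokinetic hormone gene, CCHa2, spab, a sleep-related gene, and Pburs, a bursicon subunit gene, were off throughout under a fit with 1 component. Mip, the allatostatin B gene, was on in 6 cell types at a highest mean of 6.51 TPM, so an on state did not mean a high level.

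Some members stayed low in every cell type. Highest cell type means were 2.82 TPM for FMRFa, 3.54 TPM for CCAP, 8.16 TPM for ETH, 8.78 TPM for Burs, a bursicon subunit gene, and 9.99 TPM for CNMa. Lk was on in 20 cell types at no more than 17.8 TPM, Ilp7 in 27 at no more than 20.9 TPM and Ilp5 in 14 at no more than 19.2 TPM. CCHa1 was on in 10 at up to 33.1 TPM, Trissin in 6 at up to 23.0 TPM and RYa in 11 at up to 50.0 TPM. By contrast amn was at 10 TPM or more in all 67 cell types and was on in the glial type Glia_Eg alone, at 418 ± 71 TPM (SD, n = 6).

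Among the 37 members fitted with 2 components, which leaves out Nplp2, cell types held 1 to 14 in the on state, with a median of 5. The transmedullary neuron Tm2 had the most, 14, among them Tk, Dh44 and Ptth, and the lobula columnar neuron LC16 had 1. Of the 14 in Tm2, 2 were at 50 TPM or more. Tm2 was profiled by INTACT and LC16 by TAPIN, methods with medians of 7 and 4.5 members on among optic lobe neurons. Leaving out members on in more than 33 cell types, every cell type except LC16, LPLC2 and T4 was on for at least 1. Cell types on for the acetylcholine transporter gene VAChT (36) had a median of 2 such members, those on for the GABA enzyme gene Gad1 (7) 3 and those on for the glutamate transporter gene VGlut (14) 2.5.

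Receptor genes were on in more cell types than their ligand genes in 22 of 35 pairs with both modeled, in fewer in 10 and in as many in 3. The median was 10 cell types per receptor gene. The sNPF receptor gene sNPF-R and the myoinhibitory peptide receptor gene SPR were on in all 67, at medians of 13.4 and 11.8 TPM, and MsR1, MsR2, CCHa2-R and TrissinR were off in all 67 at up to 208, 103, 370 and 520 TPM. These 6 were fitted with 1 component, which gives a single state throughout, and they enter the counts above. The Pdf receptor gene Pdfr was on in 33 while Pdf was on in none. The SIFamide receptor gene SIFaR was on in 49 while SIFa was on in none. The 12 processing genes were on in a median of 59.5 cell types.

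The cell classes were next compared with optic lobe neurons in 1 fit over 11567 genes, of which 43 were members. Of the 127 optic lobe neuron libraries 44 came by INTACT, as did 2 of the 10 photoreceptor libraries, while the other 5 classes held TAPIN libraries alone. Photoreceptors had 3 members higher, where 10.9% of all genes were called higher, and 6 lower, where 23.9% were called lower. Capa (3R, 29912991 to 29914346) measured 279 TPM at the lowest, 523 at the median and 1114 at the highest of 10 photoreceptor libraries, against 0, 0.640 and 39.1 TPM in 127 optic lobe neuron libraries. The groups did not overlap (log2 difference 8.12 ± 0.57, limma adjusted p = 1.66e-29).

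All photoreceptor types carried Capa. R8_Rh5 held 781 and 1114 TPM, R1-6 held 410, 279, 692 and 695 TPM, the R7 drivers held 409 to 566 TPM and R8_Rh6 held 544 and 353 TPM, so only R8_Rh5 stood above the others. Among the bead and mock libraries, the 2 made with an antibody against FLAG and L1L2 nuclei held 637 and 255 TPM of Capa, and the other 10 held at most 70.3 TPM.

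Nplp4 and Ptth, which encodes the prothoracicotropic hormone of moulting, went with Capa. Nplp4 measured 5.31, 60.6 and 132 TPM (lowest, median and highest) in photoreceptors, against 0, 0 and 11.1 TPM in optic lobe neurons (log2 difference 4.55 ± 0.66, limma adjusted p = 1.35e-09). It thus hardly reached the 10 TPM filter in optic lobe neurons, and its direction was largely set by that filter. Ptth measured 0, 19.7 and 77.1 TPM, against 0, 0.640 and 15.8 TPM (3.08 ± 0.53, limma adjusted p = 4.28e-07). R8_Rh6 was low in Nplp4, with 5.31 and 9.89 TPM, but not in Ptth, with 20.0 and 29.6 TPM. The lower members were Proc (-5.13), Ilp2 (-2.96), Hug (-2.12), Akh (-1.92), Nplp1 (-1.90) and Ilp3 (-1.65), and after quantile normalization 7 members were higher and 4 lower, with 1986 and 1982 of all genes in place of 1263 and 2764. Among TAPIN libraries alone 6 members were higher in place of 3, where 12.4% of all genes were called higher in place of 10.9%. The Nplp1 call was lost without the libraries numbered 1 (limma adjusted p = 0.1) or 2 (0.121), that of Ilp3 without those numbered 1 (0.0503) and that of Akh among TAPIN libraries alone (0.0593).

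Kenyon cells, the intrinsic neurons of the mushroom body, had 1 member higher, where 5.4% of all genes were called higher, and 6 lower, where 26.5% were called lower. sNPF measured 142, 409 and 778 TPM (lowest, median and highest) in 12 Kenyon cell libraries, against 0, 7.04 and 1749 TPM in optic lobe neurons (log2 difference 4.98 ± 0.69, limma adjusted p = 1.51e-09). All Kenyon cell types were on for sNPF. The lower members were Proc (-3.08), Ilp2 (-2.07), Gpb5 (-1.87), Ilp7 (-1.62), AstCC (-1.15) and amn (-0.99). After quantile normalization 1081 genes were higher and 901 lower, in place of 625 and 3062, and 4 members were higher and 3 lower, with the calls of AstCC, Ilp7 and amn lost (limma adjusted p of 0.132, 0.0698 and 0.0539). That of AstCC was also lost without the libraries numbered 1 (0.104) or 2 (0.102).

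Bridge neurons had 3 members higher, where 5.58% of all genes were called higher, and 3 lower, where 35.8% were called lower. spab measured 5.12, 58.3 and 254 TPM in 12 bridge libraries, against 0, 6.44 and 157 TPM in optic lobe neurons (log2 difference 2.57 ± 0.57, limma adjusted p = 0.000166). Dh44 (1.45, limma adjusted p = 0.0253) and Dh31 (1.43, limma adjusted p = 0.0371) lost their calls without either replicate number, at differences of 1.30 to 1.58 and adjusted p values of 0.0736 to 0.162. Without the libraries numbered 1, 1 member was higher, where 3.35% of all genes were. The lower members were Proc (-2.29), Akh (-1.78) and AstCC (-1.12). Without the libraries numbered 2 the count of lower members was 1, where 33.9% of all genes were lower. The Proc call was lost without the libraries numbered 1 (limma adjusted p = 0.102), that of Akh without those numbered 2 (0.0511) and that of AstCC without either (0.0903 and 0.0964). Among TAPIN libraries alone 20.7% of all genes were lower in place of 35.8%, and the calls of Proc (0.0771) and Dh31 (0.124) were lost. After quantile normalization 1272 genes were higher and 1334 lower, in place of 646 and 4142, with 5 members higher and 0 lower, Proc at an adjusted p of 0.0629.

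PAM neurons, dopamine neurons of the mushroom body, had 3 members higher, where 8.95% of all genes were called higher, and 1 lower, where 15.7% were called lower. ITP measured 39.6, 85.9 and 2223 TPM in 6 PAM libraries, against 3.62, 15.1 and 511 TPM in optic lobe neurons (log2 difference 3.46 ± 0.60, limma adjusted p = 4.34e-06). The 2 libraries of PAM_4 held 2223 and 1766 TPM, and the other 4 held 39.6 to 109.7 TPM. Without PAM_4, an alternative chosen after seeing the data, 0 members were higher, where 3.64% of all genes were. The differences were then 1.81 for ITP (limma adjusted p = 0.075), 2.28 for Nplp3 (0.127) and 0.65 for Dsk (0.665). The Dsk call was also lost without the libraries numbered 2 (limma adjusted p = 0.0811). ITP reached 12684 TPM in 1 mock library.

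PAM_4 also stood apart in markers. According to the paper, its driver likely includes non-neuronal cells of unidentified type. The 3 glial markers summed to 262 to 286 TPM in PAM_4, against 38.5 to 67.9 TPM in PAM_1 and PAM_3, with repo at 0 and 1.25 TPM. The part of these in the ITP, Nplp3 and Dsk results was not tested. Ilp2 was lower in PAM neurons (-3.59, limma adjusted p = 3.6e-05), with and without PAM_4. Without the libraries numbered 1, 2 members were lower in PAM neurons, where 12.9% of all genes were. After quantile normalization 1422 genes were higher and 1409 lower, in place of 1035 and 1812, with 4 members higher and 1 lower.

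Glia had 5 members higher, where 19.1% of all genes were called higher, and 10 lower, where 23.1% were called lower. ITP (2R, 24537421 to 24558961) encodes the ion transport peptide, an antidiuretic hormone, and longer forms made by splicing. Over all forms it measured 1459, 2341 and 3457 TPM in 12 glial libraries, against 3.62, 15.1 and 511 TPM in optic lobe neurons (log2 difference 6.95 ± 0.44, limma adjusted p = 1.52e-34). Ilp6 (X, 2331493 to 2334658) measured 103, 149 and 479 TPM, against 0, 5.18 and 52.8 TPM (4.70 ± 0.50, limma adjusted p = 6.19e-16). Neither gene overlapped between the groups. Ilp6 also measured 82.9 to 734 TPM in the 4 bead libraries without a driver, with a median of 410 TPM, and 130 and 380 TPM in the 2 Tm1_d1_mock1 libraries, so the glial range lay inside that of these controls.

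ITP differed among the glial types, with 3233 and 3408 TPM in Glia_Mg, 2359 to 3457 TPM in the 4 libraries of Glia_Psg and 1459 to 2322 TPM in the 6 of Glia_Eg. Glia_Mg lay inside the range of Glia_Psg and above that of Glia_Eg. The bead and mock libraries held 53.8 to 828 TPM of ITP in 11 of 12 and 12684 TPM in 1. Ilp6 measured 475 and 479 TPM with the second driver of Glia_Psg and 140.0 and 139.6 TPM with the first, so its drivers did not overlap.

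Capa (log2 difference 2.33), Ptth (1.88) and amn (0.92) were also higher in glia. The 10 lower members were Proc (-5.02), Ilp2 (-3.65), Gpb5 (-3.63), Hug (-2.33), spab (-1.94), Ilp3 (-1.87), Nplp1 (-1.86), Ilp7 (-1.72), Ms (-1.31) and AstCC (-1.09), among them 3 insulin-like genes. Without the libraries numbered 1, 6 members were lower, where 20.1% of all genes were. The calls of Nplp1, spab, Ms and AstCC were then lost (limma adjusted p of 0.0787, 0.0591, 0.0816 and 0.0851). Those of Nplp1 (0.0533) and AstCC (0.117) were also lost without the libraries numbered 2, and that of Ms among TAPIN libraries alone (0.0551). Of the processing list 0 were higher and 9 of 12 lower in glia. The glial Capa values came from Glia_Eg, which held 15.7 to 80.7 TPM.

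Muscles had 9 members higher, where 17% of all genes were called higher, and 5 lower, where 10.4% were called lower. Nplp3 (3L, 16318024 to 16318690) measured 1847 and 1534 TPM in Muscles_App and 576 and 819 TPM in Muscles_Head, against 0, 11.7 and 411 TPM (lowest, median and highest) in optic lobe neurons, without overlap (log2 difference 6.31 ± 1.03, limma adjusted p = 8.22e-08). ITP measured 1367, 1716, 904 and 829 TPM in the same libraries, against 3.62, 15.1 and 511 TPM (5.97 ± 0.73, limma adjusted p = 2.39e-12). Muscles_App lay above Muscles_Head in both genes. One mock library held 12684 TPM of ITP and another 1111 TPM of Nplp3.

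CCHa1 (log2 difference 3.51), Ilp5 (2.98), Ilp6 (2.82), Dsk (2.62), CCHa2 (2.39), CNMa (2.14) and amn (0.98) were also higher in muscles. The lower ones were Proc (-4.55), Hug (-2.64), Ilp2 (-2.60), Gpb5 (-2.34) and Ilp7 (-2.0). Dsk, CCHa1, Ilp5, CCHa2 and CNMa measured 51.4 TPM or less in each of the 4 muscle libraries, and a bead library without a driver held 890 TPM of CCHa1. CNMa reached at most 8.88 TPM in optic lobe neurons, so it entered the fit through other classes alone and could hardly come out lower. Without the libraries numbered 1, 2 members were lower, and without those numbered 2, 3 were, where 8.87% and 9.52% of all genes were lower. The calls of Ilp7 and amn were lost in both cases (limma adjusted p of 0.133 and 0.0691 for Ilp7, 0.0943 and 0.0867 for amn). Those of Dsk, Gpb5 and Ilp2 were lost without the libraries numbered 1 (0.0693, 0.375 and 0.0682), that of Hug without those numbered 2 (0.0578) and that of Ilp7 among TAPIN libraries alone (0.0791).

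**Figure D3:**
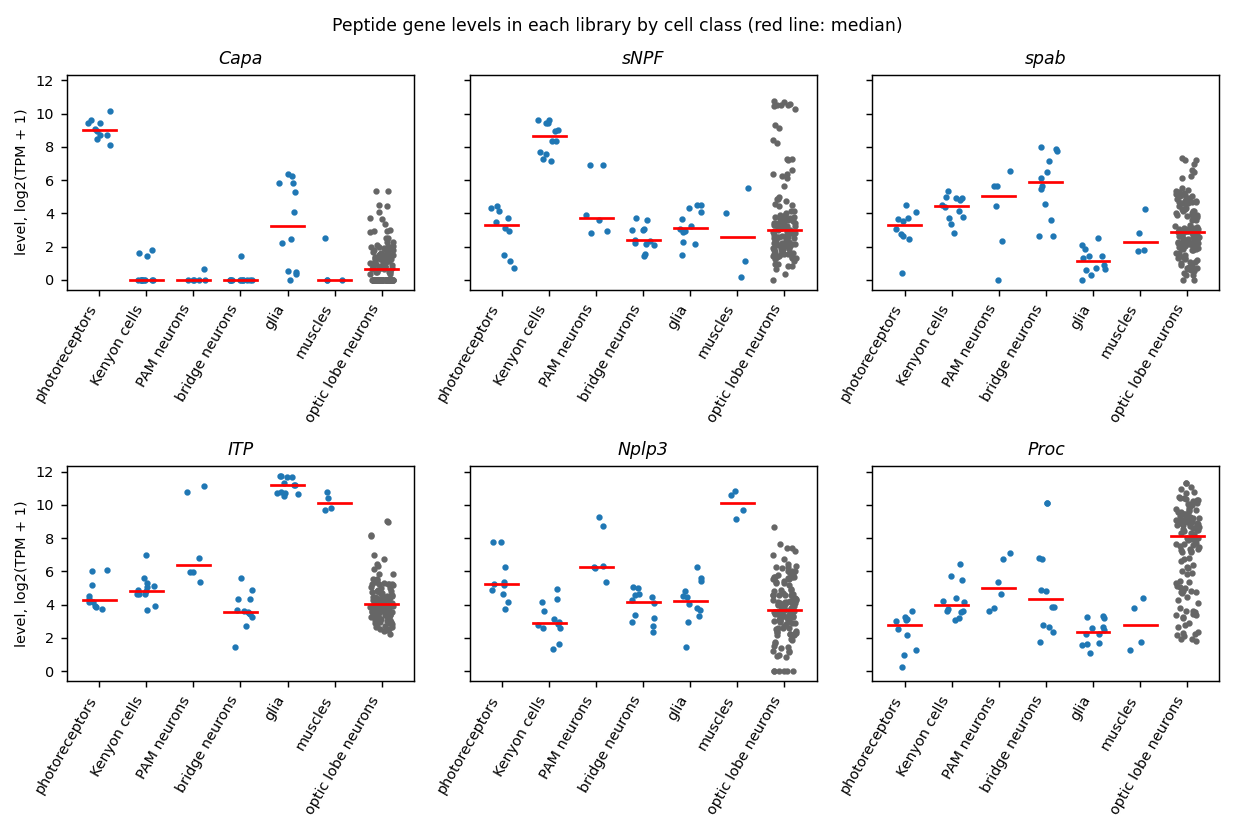
Level of 6 precursor genes as log2(TPM + 1) in each library (points) of 6 cell classes and of the 127 optic lobe neuron libraries at the right, with red lines at the medians. Capa stood apart in photoreceptors, ITP in glia, muscles and 2 PAM libraries and Nplp3 in muscles, sNPF was high in every Kenyon cell library but inside the optic lobe range, and Proc had its highest median in optic lobe neurons.

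The transcripts of ITP were then read singly, since this gene makes peptides that differ at their ends. The annotation gives 5 transcripts with 3 coding forms. ITP-RD, ITP-RF and ITP-RG share one form with the last coding exon at 24556284 to 24556422, ITP-RC has a form ending in an exon at 24556005 to 24556143, and ITP-RE has a form ending in one at 24558030 to 24558135, all on 2R. ITP-RE has the shortest coding sequence, 324 bases against 357 in the others. In the 8 cell types with 100 TPM or more over these transcripts, ITP-RE took at most 0.0394% on average. The ITP levels of these cell types were thus almost all of the longer coding forms.

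ITP-RC took 33.2% in Glia_Eg (18.5% to 46.2% over 6 libraries), 25.7% in Glia_Psg (14.3% to 56.7% over 4) and 18.9% in Glia_Mg (11.8% and 26.0%). It took 8.65% in Muscles_Head (4.77% and 12.5%), 5.88% in Muscles_App (2.81% and 8.95%) and 4.08% in PAM_4 (2.51% and 5.65%). In the driver lines of 2 optic lobe neurons its share was 28.8% in Dm1 (22.2% and 35.5%) and 19.3% in Tm20 (15.3% and 23.2%), inside the glial range. The paper proposes that these 2 lines share contaminating pigment cells, whose part in their ITP was not tested. The glial libraries thus overlapped each other, and PAM_4 lay inside or next to the muscle range and below every glial library. The form of ITP-RD, ITP-RF and ITP-RG took 66.7% to 95.9%.

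**Figure D4:**
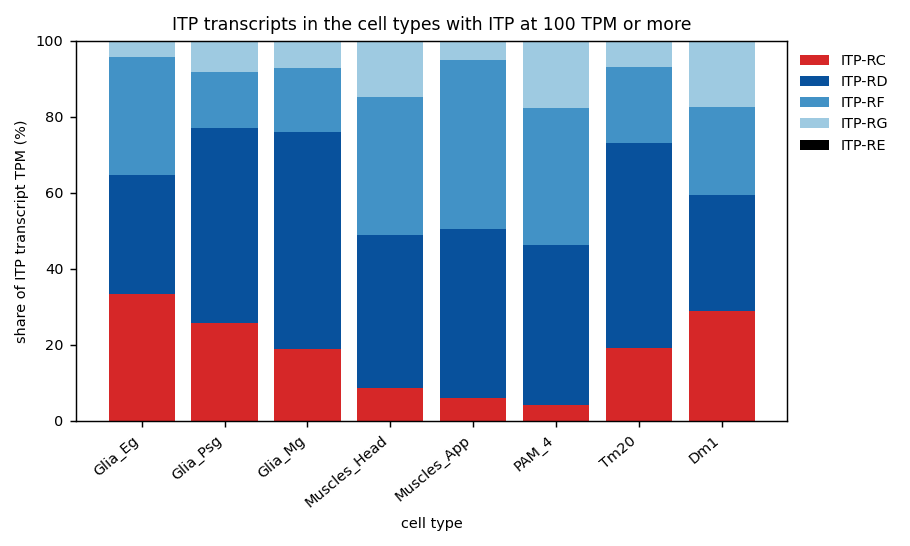
Share of the summed TPM of 5 annotated ITP transcripts (%, mean over libraries) in 8 cell types. ITP-RC (red) took 18.9% to 33.2% in the 3 glial types, 28.8% in Dm1, 19.3% in Tm20 and at most 8.65% in muscles and PAM_4, the 3 blue transcripts hold one coding form, and ITP-RE is not visible.

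The dissected lamina, the first optic neuropil, was compared with the optic lobe from which it had been removed. Of 22 members tested, 3 were higher, where 14.2% of 7470 genes were called higher, and 15 lower, where 45.4% were called lower. The median log2 difference was -3.41 over the members and -0.47 over all genes. Genes entered at 10 TPM or more in at least 2 of the fitted libraries. AstC, CCHa1, Dh44 and Mip reached at most 4.54, 4.93, 7.53 and 1.10 TPM in lamina, so they entered through the remainder alone. Their direction was fixed by that filter, and the count of lower members and the member median include them. After quantile normalization 1574 genes were higher and 2097 lower, in place of 1061 and 3391, and 5 members were higher and 14 lower.

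ITP measured 308, 256, 301 and 243 TPM in lamina, against 43.7, 44.3, 49.7 and 57.2 TPM in the remainder (log2 difference 2.48 ± 0.13, limma adjusted p = 7.4e-07). Ilp6 measured 37.4, 33.5, 45.3 and 22.5 TPM, against 18.4, 19.9, 19.3 and 14.8 TPM (0.87 ± 0.22, limma adjusted p = 0.00805). Neither overlapped. Nplp2 measured 93.0, 262, 42.5 and 97.6 TPM in lamina, against 48.2, 39.3, 21.0 and 52.3 TPM, with overlap (1.38, limma adjusted p = 0.036), and its adjusted p was 0.0527 to 0.0974 without any of 6 of the 8 libraries, at differences of 0.92 to 1.49.

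The sum of repo, alrm and Eaat1 was 198 to 419 TPM in lamina, against 1229 to 1478 TPM in the remainder, while repo alone was 113 to 213 TPM in lamina, against 45.6 to 58.9 TPM. Photoreceptor markers (ninaE, chp and Arr2) summed to 4841 to 10900 TPM in lamina, against 106 to 143 TPM. The part of these in the ITP and Ilp6 differences was not tested.

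The 15 lower members held the largest differences. Pdf measured 0.64, 68.1, 1.74 and 7.34 TPM in lamina, against 267, 252, 370 and 164 TPM in the remainder (log2 difference -5.15 ± 0.98, limma adjusted p = 0.00193). Mip, whose direction the filter fixed, measured 0.48, 1.10, 0.16 and 0 TPM, against 23.9, 24.4, 75.0 and 32.1 TPM (-4.69). Tk measured 25.2, 205, 21.6 and 70.3 TPM, against 850, 874, 951 and 759 TPM (-3.98 ± 0.60, limma adjusted p = 0.000476). In each of these genes every lamina library lay below every remainder library.

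The other lower members, also without overlap, were AstA (-4.59), Ms (-4.58), Dh31 (-4.06), Dh44 (-3.95), Nplp1 (-3.94), sNPF (-3.59), CCHa1 (-3.58), Proc (-3.45), spab (-3.37), AstC (-2.98), Crz (-2.56) and Gpb5 (-0.69). For Dh44, CCHa1 and AstC the filter fixed the direction. How many of all 7470 genes did not overlap was not counted, and 45.4% of them were called lower, so the lack of overlap is not read as particular to the members. The Gpb5 difference was -0.34 after quantile normalization, with an adjusted p of 0.151. Of these, Ms, Pdf and Crz were off in all 67 sorted cell types, while the remainder held 128 to 182 TPM of Ms and 29.1 to 68.8 TPM of Crz. Of the processing list 0 were higher and 8 of 11 lower in lamina.

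**Figure D5:**
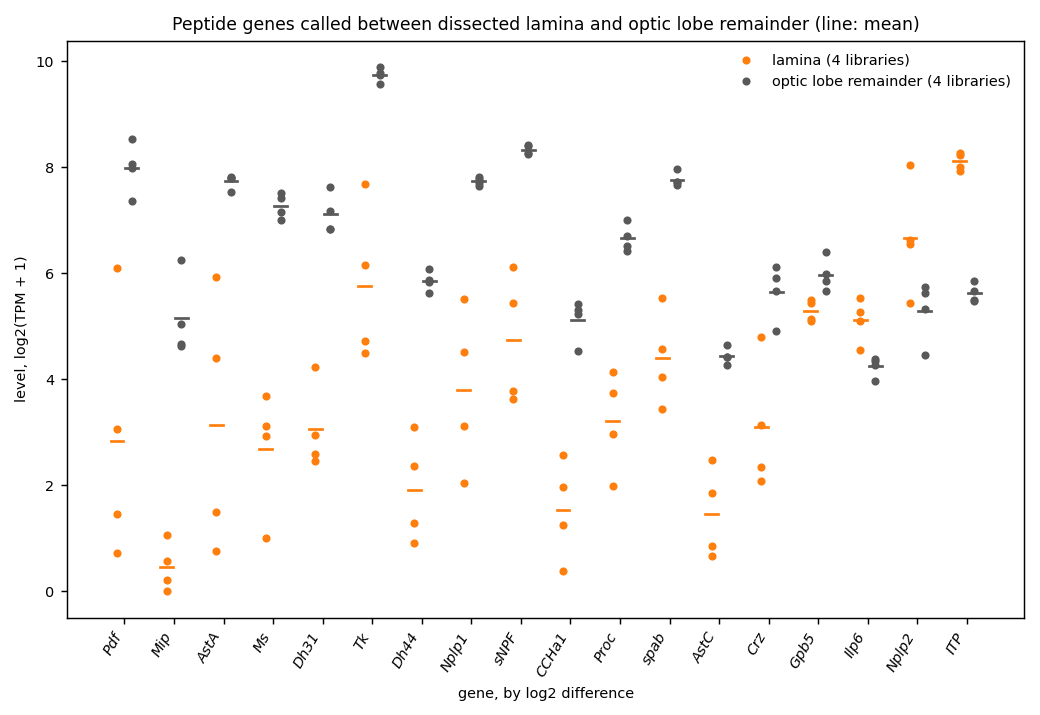
Level as log2(TPM + 1) of the 18 precursor genes called between dissected lamina (orange, 4 libraries) and the optic lobe remainder (grey, 4 libraries), ordered by the log2 difference, with lines at the means. ITP, Ilp6 and Nplp2 were higher in lamina and the other 15 lower.

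Male and female T4.T5 neurons, which detect moving edges, were compared with 2 libraries each. Of 8 members tested 0 were called, where 0% of 6329 genes were called by limma. At an unadjusted p below 0.05 there were 90 genes and 0 members. With libraries this few, the result does not show that levels were equal.

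Capture of nuclei was examined by setting purified Tm1 nuclei against the input homogenate. Of 29 members tested 3 were higher, where 59.5% of 7615 genes were called higher, and 24 lower, where 25.3% were called lower. A gene at 10 TPM or more in both input libraries but in neither captured library passed the level filter and could only come out lower. The count of 24 and the member median below include such members, among them Dsk and Ms. Tk measured 2418 and 2620 TPM in captured nuclei, against 119 and 116 TPM in input (log2 difference 4.41 ± 0.09, limma adjusted p = 5.5e-06). Proc measured 550 and 489 TPM, against 66.5 and 55.0 TPM (3.08 ± 0.12, limma adjusted p = 1.68e-05), and amn 123 and 119 TPM, against 24.9 and 22.8 TPM (2.30 ± 0.11, limma adjusted p = 2.64e-05). Tk and Proc were the precursors on in Tm1 at 50 TPM or more.

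The lower members were led by genes that were abundant in the homogenate. Nplp3 measured 11.9 and 1.33 TPM in captured nuclei, against 2317 and 2120 TPM in input (log2 difference -8.66 ± 0.76, limma adjusted p = 0.000167). Nplp2 measured 18.5 and 17.0 TPM, against 2265 and 2702 TPM (-7.05 ± 0.11, limma adjusted p = 5.08e-06). Dsk was listed at 0 in both captured libraries, against 87.1 and 122 TPM. Ms measured 3.45 and 3.49 TPM, against 312 and 318 TPM (-6.14). Both Dsk and Ms passed the filter through input alone, so their direction was fixed.

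The median log2 difference was -3.95 over the members and 0.82 over all genes. After the first capture alone, Nplp2 stood at 98.2 and 108 TPM and Nplp3 at 37.9 and 30.2 TPM, between the input and the full procedure, and Tk already stood at 2608 and 2754 TPM. Without either input library, 12 members passed the level filter, of which 3 were higher and 7 lower. Of all genes, 62.6% or 63.2% were then higher and 11.6% lower.

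The purification method also went with levels of some members among optic lobe neurons. Nplp2 measured 5.61, 81.2 and 889 TPM (lowest, median and highest) in 44 INTACT libraries and 0, 4.35 and 121 TPM in 83 TAPIN libraries, and Proc had medians of 501 TPM by INTACT and 240 TPM by TAPIN. Cell types profiled by INTACT were on for a median of 7 members and those profiled by TAPIN for 4.5. Mostly different cell types were profiled by each method, so these medians do not tell method from cell type. R1-6 and Dm12 were profiled by both methods with one driver. Nplp2 measured 162 and 121 TPM by INTACT and 59.0 and 48.0 TPM by TAPIN in R1-6. In Dm12 it measured 131 and 212 TPM by INTACT and 23.9 TPM in the TAPIN library. Proc measured 178 and 161 TPM by INTACT and 246 TPM by TAPIN in Dm12, and its values overlapped in R1-6. The part of the method in these values was not tested.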

How the data were processed

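The authors quantified trimmed reads against Ensembl transcripts and spike-ins by kallisto (version 0.43.1) and deposited TPM per transcript, per gene and per coding gene, the last rescaled after removal of spike-ins, tag and rRNA. They also deposited, as a fraction from 0 to 1, the probability that a gene is expressed, from a mixture model of log-normal components. From the coding gene table, differences of log2(TPM + 1) were fitted with limma 3.58.1 in R 4.3.3 (trended empirical Bayes, driver as a block by duplicateCorrelation), over genes at 10 TPM or more in at least 2 fitted libraries, with Benjamini-Hochberg adjustment at 0.05. Fits were tested on simulated data. Figures and summaries used Python 3.11.15.

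The precursors and the gene lists were chosen with earlier results of these data known. All precursors could be named, with values for those called. Groups came from the labels. Gene positions came from the annotation of the dm6 assembly. Alternatives changed the pseudocount, filter, block, normalization, reference and libraries. Leaving out PAM_4 and crossing replicate numbers were chosen after seeing the data. No sequences are shown.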

Additional observations from a re-analysis of the deposited data

Results flagged for a closer look

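In 67 groups of 4 to 10 libraries, the extreme library of a member was compared with the rest by Dixon's test at the 95% level, and 6 stood out, where chance gives about 5%, or 1 in 20. In the dissected lamina, replicate 2 of genotype d1 held 68.1 TPM of Pdf and 17.9 TPM of Dh31, above the other 3 lamina libraries in both. In the optic lobe remainder, replicate 1 of genotype d2 held 75.0 TPM of Mip, above the other 3, and replicate 2 of genotype d2 held 184.7 TPM of AstA, below the other 3. Among sorted cell types, replicate 2 of Dm4 with driver 1 held 660.5 TPM of Nplp1, above the other 3 libraries of both drivers, at 489 to 514 TPM. Replicate 1 of Glia_Eg with driver 2 held 2322 TPM of ITP, above the other 5 libraries of that type.

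Broad drivers that entered no comparison held members above every one of 12 bead and mock libraries and at 50 TPM or more in both libraries. The cholinergic driver ChAT_d1 held a mean of 119 TPM of Proc and 202 TPM of Tk, the GABAergic driver Gad1_d1 195 TPM of Proc, and the glutamatergic driver VGlut_d1 282 TPM of Proc and 170 TPM of Tk. The driver Kdm2_d1 held 992 TPM of SIFa, 315 TPM of Hug, 293 TPM of Nplp1 and 196 TPM of Dh44. It also held 176 TPM of Eh, 155 TPM of spab, 128 TPM of Tk and 73.2 TPM of Dsk.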

How the results depend on the processing

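All 7 own-gene differences of the peptide drivers kept their direction and call under every alternative run, with the largest adjusted p at 0.00351 by limma. Of 34 other calls in those drivers 12 were kept under every alternative, as were 29 of 55 in the cell classes, 16 of 18 in lamina and 23 of 27 after capture. Without the block for the driver, the members called higher were 61 in place of 39 in the peptide drivers and 38 in place of 24 in the cell classes, and those lower were 5 in place of 2 and 51 in place of 31. The shares of all genes rose as well in the cell classes. They were 7.15% to 22.9% higher in place of 5.40% to 19.1%, and 17.0% to 49.3% lower in place of 10.4% to 35.8%. The 2 lower calls in the peptide drivers became 7 with a pseudocount of 0.1 TPM, 1 with 10 TPM, 0 after quantile normalization, 6 with reference libraries that passed quality control and 1 with sub-optimal ones alone. Leaving out single libraries gave 0 to 3. The peptide driver counts in this paragraph stand without the share of all genes, and they describe the settings only. In lamina, 5 members were higher after quantile normalization in place of 3. After capture, leaving out 1 library gave 7 to 25 lower members, with 7 without either input library, where fewer members passed the filter. The CCAP difference in Ilp2_d1 was -0.084 without replicate 2 and 4.26 without replicate 1.

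Counting a member as on at a mean of 10 TPM gave 731 pairs in place of 430, 5 members on in no cell type in place of 10 and 8 in more than 33 in place of 4. At 50 TPM there were 245 pairs, a median of 1 cell type in place of 6, 19 members in none, 32 in 5 or fewer in place of 21, and 2 in more than 33.

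Replicate numbers did not pair the lamina libraries by the deviations of same-numbered libraries (correlations of -0.00 to 0.15), and the replicate block gave 4 members higher and 16 lower. With the replicate block 3 members were higher and 24 lower after capture, and 0 differed between the sexes, also with crossed numbers, which called 42 genes higher and 111 lower. TPM holds no read numbers, so what depth limits is unknown.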
